A study of Saccharomyces cerevisiae with 24 samples.

Results

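The genes that encode the proteins of the cytosolic ribosome were followed in young and old cells of the budding yeast Saccharomyces cerevisiae. A gene was included where its row is typed as a gene and its name starts with RPL, RPS or RPP followed by a digit, in each of the 3 deposited tables. The rule found 138 of the 6664 genes. Among them RPP1 encodes a subunit of RNase P and RNase MRP and no ribosomal protein, and it is given apart at the end. The other 137 genes were 59 pairs of paralogues, which carry the same name with the letter A or B, and 19 single-copy genes. In all, 81 genes encode proteins of the large (60S) subunit and 56 encode proteins of the small (40S) subunit.

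Polyadenylated RNA was sequenced with a strand-specific protocol in 24 libraries of diploids built for the mother enrichment programme. In that system oestradiol lets a Cre recombinase act in newborn daughters, under a daughter-specific promoter, so that daughters stop dividing while the mothers age. Cells were grown in YPD at 30 °C. Mothers were labelled with biotin, given oestradiol, aged, fixed in ethanol and purified, and young cells were taken from the log-phase culture, without oestradiol. The first table holds a mus81 mutant and its wild type in log phase and after 24 h and 48 h, with 2 libraries per strain and stage. MUS81 encodes a subunit of an endonuclease that cleaves branched DNA. The second table holds an hst3 hst4 mutant in log phase and aged, with 2 libraries each, and its wild type with 1 library each. HST3 and HST4 encode deacetylases of histone H3 lysine 56. Their old cells are called aged here because the labels give 48 h in the titles and 24 h in the age field. The genotype field reads wild type for all 6 libraries, so the titles were followed. The remaining table holds a diploid with a translocation between chromosomes XII and V, and its control, in log phase and after 24 h and 48 h, with 1 library each. Both are a/a diploids that carry Tom70-GFP, ADE2 and the construct pGST-V-U, and the control has no I-SceI. The labels do not say that replicates came from separate cultures, so the spread between replicate libraries may be technical. In the first 2 tables the p-values measure that spread, which in the hst3 hst4 table comes from the mutant replicates alone. The translocation table has no replicates, and its p-values measure how far the libraries depart from separate effects of strain and age.

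Reads recovered per library ran from 1656535 to 11330955. MUS81 had 0 to 10 reads in the mus81 libraries and 39 to 161 reads in their wild type. HST3 had 2 to 10 reads in the hst3 hst4 libraries and 278 to 319 reads in their wild type, and HST4 had 0 to 1 reads against 87 to 90. Correlations between replicates over all features ran from 0.967 to 0.992. By their column headers, the mus81 and translocation tables came from 1 sequencing lane. In the hst3 hst4 table the wild type and replicate 1 of the mutant came from a second lane and replicate 2 from another. Headers of the wild type in that table also name a batch that the mutant headers do not, so that batch and strain cannot be told apart.

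Each ribosome needs equal numbers of nearly all its proteins, and in growing yeast their genes are among the most strongly transcribed. Their promoters are known for the factor Rap1, which recruits Fhl1 and its coactivator Ifh1, and Sfp1 ties them to nutrients through the TOR pathway. A whole-genome duplication left most of them as 2 copies, many with introns, and the paired proteins are often nearly identical. For some pairs the protein is known to restrain splicing of its own or its partner's transcript, as Rpl22 does for RPL22B, Rps14 for RPS14B and Rps9 for RPS9A. Such near-identity also limits how reads can be assigned. Coding stretches of the 3 pairs with the strongest shifts below hold more differing bases than those of RPL1A and RPL1B. In RPS9 these bases all lie in the first part of the stretch, so a short read from the rest could not be assigned. Sequences are from the RefSeq R64 genome, 5′ to 3′ on the coding strand, and capitals mark the bases that differ within a pair.
RPS9A (chrXVI:405458-405547, + strand): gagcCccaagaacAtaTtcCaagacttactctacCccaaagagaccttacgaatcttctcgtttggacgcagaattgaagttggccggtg
RPS9B (chrII:604928-605017, + strand): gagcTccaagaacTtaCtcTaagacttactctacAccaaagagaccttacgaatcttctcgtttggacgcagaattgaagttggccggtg
RPL22A (chrXII:263595-263684, + strand): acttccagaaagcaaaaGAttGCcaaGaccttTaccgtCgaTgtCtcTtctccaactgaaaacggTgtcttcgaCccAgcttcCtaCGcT
RPL22B (chrVI:64510-64599, - strand): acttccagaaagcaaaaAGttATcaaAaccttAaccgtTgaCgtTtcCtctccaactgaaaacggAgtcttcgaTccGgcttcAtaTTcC
RPL9A (chrVII:228240-228329, - strand): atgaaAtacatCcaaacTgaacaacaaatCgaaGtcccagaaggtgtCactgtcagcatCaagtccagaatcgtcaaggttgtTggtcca
RPL9B (chrXIV:499681-499770, + strand): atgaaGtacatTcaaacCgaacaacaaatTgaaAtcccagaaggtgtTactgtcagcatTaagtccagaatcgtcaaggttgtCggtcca
RPL1A (chrXVI:135790-135879, + strand): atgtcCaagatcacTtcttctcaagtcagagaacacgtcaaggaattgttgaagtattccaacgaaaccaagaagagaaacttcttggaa
RPL1B (chrVII:254641-254730, + strand): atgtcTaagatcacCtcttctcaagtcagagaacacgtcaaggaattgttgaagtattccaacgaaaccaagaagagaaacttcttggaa

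In these windows of 90 bases RPS9A and RPS9B differed at 5 bases, RPL22A and RPL22B at 17, RPL9A and RPL9B at 8, and RPL1A and RPL1B at 2. Over whole coding sequences, identity within a pair ran from 46.42% for the acidic stalk proteins RPP1A and RPP1B to 99.39% for RPL1A and RPL1B, with a median of 93.17%. In 12 pairs at least 30% of the 50-base windows of a gene occur again in its partner, or the gene is too short for such windows, and the split of reads between such paralogues is uncertain. They include RPL1, RPL4, RPL7, RPL11, RPL14, RPL35, RPL41, RPL42, RPS4, RPS6 and RPS24, and such genes are marked † below. Introns interrupt 89 of the 137 genes. They lie in both genes of 41 pairs, in 1 gene of 2 pairs and in neither gene of 16 pairs. No source used here says whether intron reads were counted. An open reading frame on the other strand overlaps 16 genes, and its reads came to 0.0021% to 0.191% of those of the gene.

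The ribosomal protein genes yielded a smaller share of reads in old cells. In mus81 cells they took 19.89% and 21.07% of the reads of all genes in log phase, 17.29% and 18.0% after 24 h and 13.81% and 13.59% after 48 h. Wild-type cells of the same table had 20.41% and 21.55% in log phase, 17.62% and 18.61% after 24 h and 14.38% and 15.35% after 48 h. The share thus stood lower at each later stage in both strains, with no overlap between stages. In hst3 hst4 cells the share was 11.02% and 10.48% in aged libraries, against 19.9% and 21.64% in log phase. Its wild type had 17.28% in the aged library, against 18.4% in log phase. In the translocation strain the share was 20.77% in log phase, 20.85% after 24 h and 16.0% after 48 h, and in its control 23.74%, 19.16% and 15.82%. A share of reads does not depend on how the values were scaled, but it falls when other RNAs rise. In these populations fewer cells of a type and less RNA per cell cannot be told apart.

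**Figure D1:**
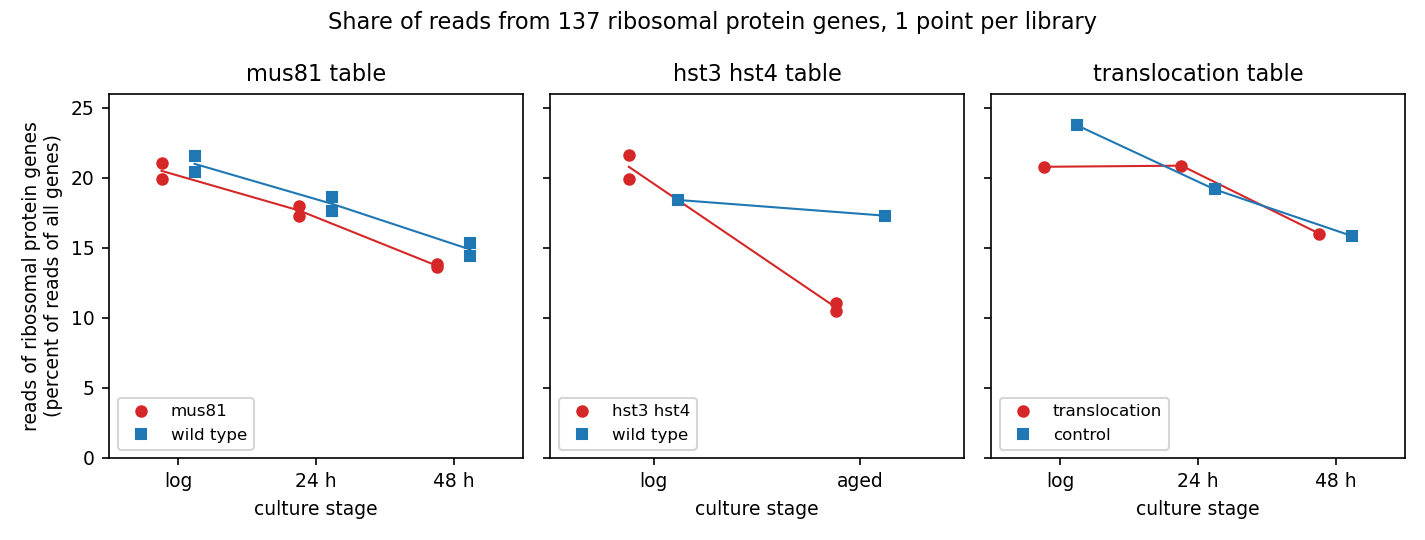
Reads of the 137 cytosolic ribosomal protein genes as a percentage of the reads of all genes (y axis) at each culture stage (x axis), 1 panel per table and 1 point per library. The 48 h libraries of mus81 and wild type lie between 13.59% and 15.35%, below all log-phase libraries of that table, and the 2 aged hst3 hst4 libraries lie at 11.02% and 10.48%.

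The makeup of the family's reads varied within narrow ranges. The 60S genes took 55.86% to 59.24% of the family's reads over the 24 libraries. Single-copy genes took 22.49% to 28.25%, A genes 37.59% to 41.19% and B genes 34.16% to 36.39%. Per kilobase of coding sequence, RPS31, which encodes a ubiquitin fused to a 40S protein, stood highest in wild-type log phase, at 59080 scaled reads. RPS12 followed at 44090, RPL43A at 40310 and RPL32 at 38830. The lowest were RPL15B at 1143, RPS9A at 1235 and RPL22B at 1427. The median gene had 19310 scaled reads per coding kilobase in wild-type log phase and 8746 after 48 h.

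The next question was which members fell with age. Values below are log2 scaled reads as deposited, and each fold change comes from a limma fit over the whole table with Benjamini-Hochberg adjustment, called below an adjusted p of 0.05. In wild type after 48 h, 132 of the 137 genes fell and none rose, where 30.1% of all features fell and 33.1% rose. Their median log2 fold change was −1.18, against 0.15 over all features. In mus81 after 48 h, 135 fell and none rose (29.5% and 30.7% of all features), with medians of −1.33 and 0.11. In aged hst3 hst4 cells 130 fell and none rose (23.6% and 28.6%), with medians of −1.31 and 0.11. Over both strains of the translocation table, 108 fell after 48 h and none rose (17.2% and 23.1%), with medians of −1.04 and 0.18. That last count was 0 without the control 48 h library and 3 without the translocation 48 h library.

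After 24 h, 116 genes had fallen in wild type (24.2% of all features fell), 111 in mus81 (25.7%) and 16 in the translocation table (11%). Genes that rose were few. In mus81 after 24 h RPL26A rose by 0.33, RPS30A by 0.50 and RPL41B† by 0.67, where 26.3% of all features rose. In the translocation table after 24 h RPS9A rose by 0.79, RPL41A† by 1.21 and RPL41B† by 1.96, where 21.1% of all features rose. From 24 h to 48 h, 107 genes fell in mus81 (5.35%) and 99 in wild type (12.7%). The mus81 count was 32, 1 and 3 without 24 h replicate 1, 24 h replicate 2 and 48 h replicate 2. The wild-type count was 49 without 24 h replicate 2 and 23 without 48 h replicate 1. The count in the translocation table after 24 h was 85 without the translocation log library, 6 without the control 24 h library and 3 without either 48 h library. Quantile normalization gave 18 falls and 15 rises after 24 h in mus81, 2 and 8 in the translocation table and 7 and 1 in wild type. The counts and the balance of falls and rises at 24 h thus rest on the scaling. The family's share of reads stood lower after 24 h than in log phase in mus81, wild type and the control, but not in the translocation strain.

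How far the family fell depends on the scaling, which no source used here states. Quantile normalization gave 54 falls and 9 rises in wild type after 48 h with a family median of −0.21, and it moved the median of all features to −0.11. A fit on the recovered reads scaled by library total (limma voom) gave 101 falls and 7 rises with a family median of −0.52, where the median of all features was 0.80. In mus81 after 48 h these settings gave 66 falls and 9 rises, and 114 falls and 4 rises. In aged hst3 hst4 cells they gave 115 falls and 2 rises, and 123 falls and 1 rise, and in the translocation table they gave 22 falls and 2 rises, and 55 falls and 3 rises. The family median stayed below 0 and below that of all features in these 4 sets under both settings. Shares of all features that fell or rose under these settings are not given. The counts under them, here and elsewhere, thus have no background beside them.

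**Figure D2:**
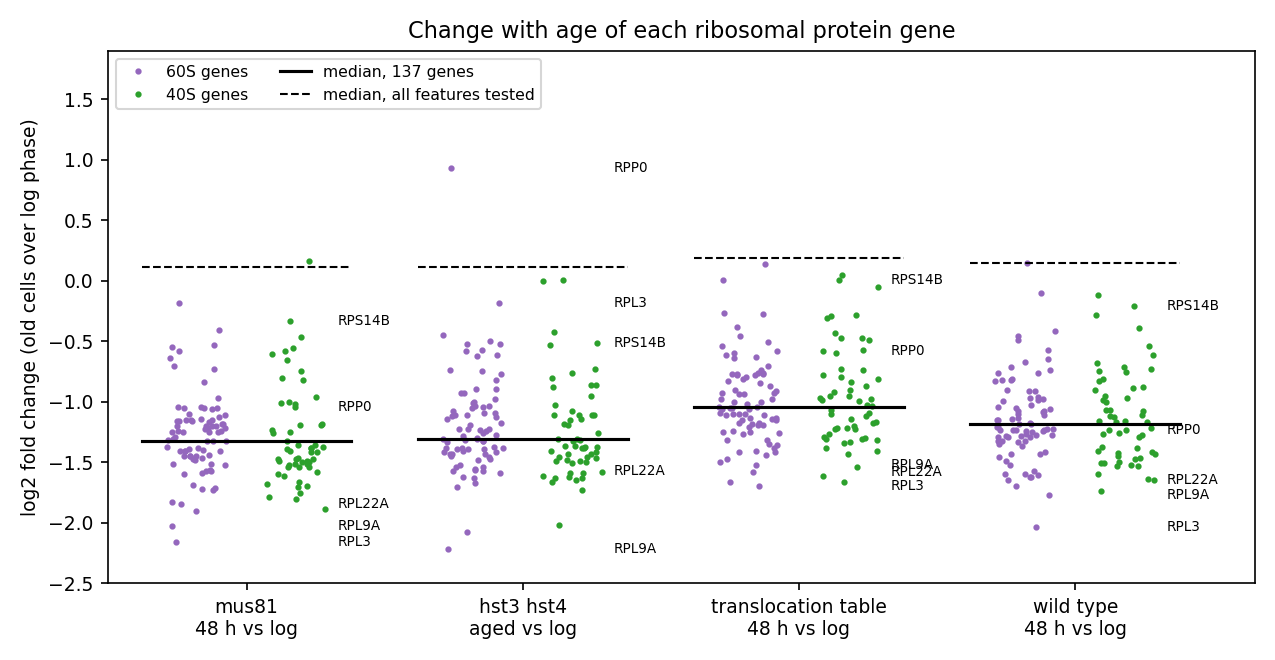
Log2 fold change of old over log-phase cells (y axis) for each of 137 genes, split into 60S and 40S genes, in mus81, hst3 hst4, the translocation table and wild type. Solid lines mark the family's medians, from −1.04 to −1.33, and dashed lines the medians over all features tested, from 0.11 to 0.18, and RPP0 in hst3 hst4 stands apart at 0.93.

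Genes of both subunits fell. In wild type after 48 h, 79 of 81 60S genes and 53 of 56 40S genes fell, with medians of −1.21 and −1.16. In mus81 the counts were 80 of 81 and 55 of 56, with medians of −1.25 and −1.40. All 19 single-copy genes fell in both strains. In wild type 56 of 59 A genes and 57 of 59 B genes fell, with medians of −1.24 and −1.12. Genes with an intron had a median of −1.16 and genes without an intron −1.23. Leaving out the genes with shared windows left 110 of 113 genes that fell, with a median of −1.17. Falls were deeper in genes with longer coding sequences in 3 of the 4 sets. Spearman's rho of the change with coding length over the 137 genes was −0.57 in wild type, −0.40 in mus81, −0.50 in the translocation table and −0.01 in hst3 hst4, beside −0.29, −0.25, −0.21 and 0.08 over all genes with gene length. In wild type the 19 genes under 300 coding bases had a median of −0.81, and the 32 genes of 600 bases or more had −1.40. The part of transcript length in the change was not tested.

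Across the 4 sets of old cells, 103 of the 137 genes fell in all 4 and 27 in 3, where 10.1% and 10.5% of the 6604 features tested in all tables did. RPL41A†, RPP0, RPS9A, RPL26A and RPS14B fell in 2, and RPL41B† and RPS30A fell in 1. These sets come from 3 tables and the mutants share no library with the wild type. A fall in all 4 needs a call in the translocation table, where most calls were lost without either 48 h library, as given above. Quantile normalization also lowered the counts of falls in each set.

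RPL3 had the deepest fall in wild type. It encodes a large-subunit protein that reaches the peptidyl transferase centre, and it lies at chromosome XV 444686 to 445849 without an intron. Its log2 levels in wild type were 15.11 and 15.04 in log phase, 13.76 and 13.98 after 24 h and 12.94 and 13.15 after 48 h. In mus81 they were 14.88 and 14.82 in log phase, 13.37 and 13.48 after 24 h and 12.96 and 12.43 after 48 h. The stages did not overlap in either strain. RPL3 fell by 2.16 in mus81 (SE 0.182, limma adjusted p = 1.73e-07) and by 2.03 in wild type (SE 0.182, adjusted p = 2.24e-07), as log2 fold changes at 48 h. It fell by 1.70 in the translocation table (adjusted p = 0.00234), where the translocation strain had 14.34, 13.13 and 12.42 and the control 13.97, 13.03 and 12.50 in log phase, after 24 h and after 48 h.

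RPL9A, whose protein sits in the large subunit near the stalk base, lies at chromosome VII 227754 to 228329 and has no intron. Its log2 levels in mus81 were 13.20 and 13.20 in log phase, 12.14 and 12.23 after 24 h and 11.47 and 10.87 after 48 h. Wild type had 13.34 and 13.27, then 12.26 and 12.61, then 11.39 and 11.68. In hst3 hst4 it had 11.50 and 11.45 in aged cells, against 13.62 and 13.76 in log phase, and its wild type had 13.13 in aged cells, against 13.67 in log phase. RPL9A fell by 2.22 in hst3 hst4 (SE 0.118, adjusted p = 0.00114), by 2.03 in mus81 (adjusted p = 2.37e-07) and by 1.77 in wild type (adjusted p = 6.51e-07). It was thus the deepest fall in hst3 hst4 and the second deepest in mus81 and wild type.

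The remaining deep falls in wild type were the 40S gene RPS7B (−1.74) and the 60S genes RPL13A (−1.70) and RPL22A (−1.65). In mus81 they were RPL8A (−1.91), RPS21A (−1.88) and RPL22A (−1.84). In hst3 hst4 they were RPL40B (−2.08), which encodes a ubiquitin fused to a 60S protein, RPS26B (−2.02), RPS18B (−1.73) and RPL24A (−1.71). In the translocation table they were RPL19B (−1.67), RPS7B (−1.66), RPS6A† (−1.62) and RPL22A (−1.58). RPL22A was thus among the 5 deepest falls in 3 of the 4 sets.

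The shallowest called falls in wild type were RPS29A (−0.54), RPL37A (−0.49), RPL22B (−0.46), RPL26A (−0.42) and RPS25B (−0.40). In mus81 they were RPL37A (−0.55), RPL31B (−0.53), RPS29A (−0.47), RPL22B (−0.41) and RPS14B (−0.34). Each of these had a positive value under at least 1 of the other scalings, so their direction rests on the scaling. In hst3 hst4 they were RPL15B (−0.58), RPS4B† (−0.53), RPL4B† (−0.52), RPS14B (−0.51) and RPL5 (−0.50), where quantile normalization turned RPS4B†, RPL4B† and RPL5 positive. In the translocation table they were RPL34B (−0.76), RPL18B (−0.76), RPS25A (−0.74), RPS27A (−0.73) and RPL31B (−0.63), and quantile normalization turned RPS25A positive. Uncalled in wild type were RPS9A (−0.29), RPS14B (−0.21), RPS30A (−0.12), RPL41A† (−0.10) and RPL41B† (0.15), and in mus81 RPL26A (−0.18) and RPS30A (0.16). RPS14B and RPS9A are the scarcer genes of their pairs.

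The single-copy genes included the deepest fall, RPL3. In wild type after 48 h deep falls after that of RPL3 were those of the 40S genes RPS3 (−1.48) and RPS15 (−1.43). The shallowest were those of the 60S genes RPL39 (−0.76), RPL10 (−0.74) and RPL28 (−0.67). RPS3, whose protein lines the mRNA entry channel, had 12.53 and 12.36 after 48 h in mus81, against 14.03 and 14.19 in log phase, and 12.57 and 12.90 in wild type, against 14.04 and 14.39. RPS31 fell by 0.65 in mus81 and by 0.83 in wild type. The 5 stalk genes fell together in both strains. RPP0, the scaffold of the stalk, fell by 1.05 in mus81 and by 1.23 in wild type. The acidic proteins that it carries gave −1.25 for RPP1A, −1.16 for RPP1B, −1.58 for RPP2A and −1.57 for RPP2B in mus81, and −1.21, −0.76, −1.33 and −1.15 in wild type.

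In hst3 hst4 RPP0 stood above 0 and a few other genes showed no called fall, and the log-phase replicates of those named here differed. RPP0 had 14.17 and 14.12 in aged cells, against 13.75 and 12.68 in log phase, and its change of 0.93 was not called (adjusted p = 0.0772). Its wild type had 14.77 in aged cells and 14.70 in log phase. RPL3 had 13.88 and 13.87 in aged cells, against 14.43 and 13.70 in log phase, and its change of −0.19 was not called (adjusted p = 0.581). RPS11B (0.00), RPS15 (−0.01) and RPS11A also missed the threshold. Between the log-phase replicates, replicate 2 differed from replicate 1 by −1.06 for RPP0, −0.93 for RPS11B, −0.73 for RPL3, −0.68 for RPS15 and −0.59 for RPS11A, while the family's median difference was 0.11. The replicates also came from different lanes, and the part of the lane in these values was not tested.

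Daughter cells were looked at through 12 genes transcribed mainly in daughters, since log-phase cultures hold daughters that purification of mothers removes. All 12 were detected in every library. Of these, 11 fell after 48 h in mus81 (median −1.98) and 11 in wild type (median −1.28), 8 fell in aged hst3 hst4 cells, where 1 rose (median −1.10), and 2 fell in the translocation table (median −0.52). Their summed scaled level was 6318 and 5570 after 48 h in mus81, against 19120 and 16430 in log phase, and 7631 and 10690 in wild type, against 23360 and 18310. In hst3 hst4 it was 12700 and 12410 in aged cells, against 17790 and 15420, and in its wild type 18170, against 46560. In the translocation strain it was 7772 after 48 h, against 10680, and in its control 8865, against 11200. Scaled by library total instead, the sum was 2536 after 48 h in the translocation strain, against 2434, and 2850 in its control, against 2354. The direction in that table thus rests on the scaling. By library total the sum still stood lower in old cells of the other tables. In hst3 hst4 it was then 2178 and 2161 in aged cells, against 2561 and 2291. The level of 46560 comes from 1 library and is the highest of the 24 libraries. In the wild type of the hst3 hst4 table the ribosomal protein share was 17.28% in aged cells, against 18.4% in log phase. The part of daughter cells in the change of the ribosomal protein genes was not tested.

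The effect of mus81 on the family was then asked at each stage. In log phase, limma called 0 of 137 genes between mus81 and wild type, where 0.405% of all features were called. An unadjusted p below 0.05 was found for 1 gene, and voom called 0. After 48 h limma again called 0 genes (0.24%), although 32 had an unadjusted p below 0.05, and voom called 1 lower. The difference in change from log phase to 48 h was called for 0 genes (0.12%), with 5 at an unadjusted p below 0.05 and 0 called by voom. Percentages here are shares of adjusted calls. Shares of all features at an unadjusted p are not given, so the unadjusted counts cannot be set against a background. The family's share of reads after 48 h was 13.81% and 13.59% in mus81 and 14.38% and 15.35% in wild type.

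After 24 h the only call was RPL8A, a 60S gene, which was lower in mus81 (0.225% of all features were lower). Its log2 levels were 11.25 and 11.31 in mus81 and 11.80 and 11.99 in wild type, and the strains did not overlap. The fold change was −0.62 (SE 0.131, adjusted p = 0.041). Voom called 1 gene lower and 8 higher at this stage, and quantile normalization gave 0 lower and 2 higher. The RPL8A call was lost without a variance trend, without wild-type 24 h replicate 2, without either mus81 24 h library and without either mus81 log-phase library, while the value ranged from −0.71 to −0.52 over libraries left out. Of the 12 daughter markers, 3 were also lower in mus81 after 24 h.

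Aged hst3 hst4 cells had lower values across the family than the aged wild type of their table. Of 137 genes, 125 were lower and 0 higher, where 8.48% of all features were lower and 8.44% higher. The family's median was −1.03, against 0.02 over all features. RPL9A differed most, at −1.66 (SE 0.144, adjusted p = 0.0128), followed by RPL40B (−1.61), RPS21A (−1.52), RPS26B (−1.39) and RPL20A (−1.39). RPS21A had 10.62 and 10.56 in aged hst3 hst4 cells and 12.11 in the aged wild type. In log phase RPS28B alone was called, at −0.51 (SE 0.1164, adjusted p = 0.0434, with 8.36% of all features lower), and its levels were 10.70 and 10.68 in the mutant and 11.21 in the wild type. That count was 35 and 28 without log-phase replicate 1 and replicate 2 of the mutant and 0 without either aged library, and voom gave 1 lower and 6 higher and quantile normalization 0 lower and 3 higher. The drop with age itself was deeper in the mutant for 78 genes and shallower for 0, where 6.03% and 4.29% of all features differed in these directions, with a family median of −1.03. This last contrast was added after the data were seen.

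These contrasts rest on a single wild-type library per stage. Quantile normalization gave 56 genes in place of 125 and 45 in place of 78. The count of 125 was 0 without either aged hst3 hst4 library, and that of 78 was 0 without either of them or without a variance trend, and 131 and 130 without log-phase replicate 1 and replicate 2. Within the lane of replicate 1, which also holds both wild-type libraries, the aged mutant minus the aged wild type had a family median of −0.98. There the mutant's change with age had a family median of −1.19, and that of the wild type had −0.25. By the medians given above, the mutant fell about as far as mus81 and wild type did after 48 h in the mus81 table. The wild type of the hst3 hst4 table fell less than any of these sets. In the lane of replicate 2 the mutant's change had a family median of −1.41. Each of these lane values compares 1 library with 1 library, and lane medians over all features are not given. Daughter markers were also lower in the mutant, 9 of 12 in aged cells (median −1.49) and 11 of 12 in log phase (median −1.25). Their summed scaled level was 12700 and 12410 in aged mutant cells and 18170 in the aged wild type, and 17790 and 15420 in mutant log phase and 46560 in wild-type log phase. The wild-type log-phase level comes from 1 library and is the highest of the 24 libraries. The part of daughter cells in the difference between these strains was not tested.

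No family member was called between the translocation strain and its control by limma (0.015% of all features were called). None had an unadjusted p below 0.05, and voom called 0. With 1 library per strain and stage, this test averages over the 3 stages.

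Paralogues of a pair were used unequally in wild-type log phase. Levels are again scaled reads per coding kilobase, as means of 2 libraries. The higher gene exceeded the lower by a median of 1.394-fold over the 59 pairs, from 1.021-fold to 25.48-fold, and the A gene was higher in 35 pairs and the B gene in 24. In 17 pairs the ratio was over 2. The most uneven pair was RPL15, with 29110 for RPL15A and 1143 for RPL15B. RPS9, whose protein is important for decoding accuracy, had 1235 for RPS9A and 29420 for RPS9B, a ratio of 23.82. RPL22 had 23110 for RPL22A and 1427 for RPL22B (16.2-fold), and RPS14 had 24780 for RPS14A and 3199 for RPS14B (7.746-fold). RPL9A stood at 17610 and RPL9B at 4283 (4.112-fold). The higher gene was the same by unique windows in all pairs and differed by the length of the whole feature in 4.

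**Figure D3:**
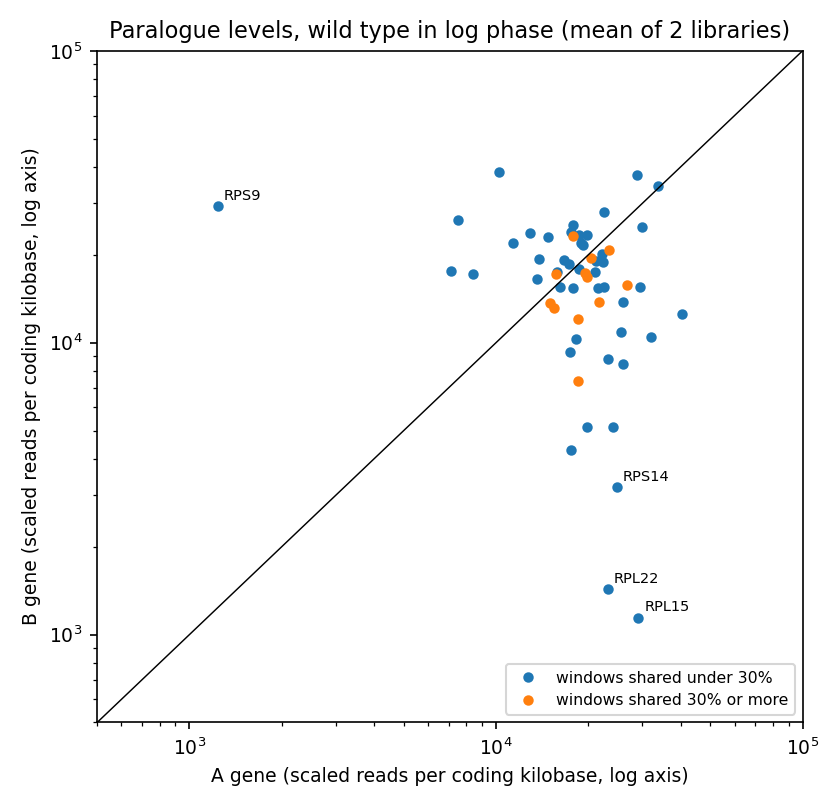
Scaled reads per coding kilobase of the B gene (y axis, log scale) against the A gene (x axis, log scale) for 59 pairs in wild-type log phase, as means of 2 libraries; the diagonal marks equal levels and orange points mark pairs with shared windows. Most pairs lie near the diagonal, and RPS9, RPL15, RPL22 and RPS14 lie farthest from it, at 7.746-fold to 25.48-fold.

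Many pairs changed their balance in old cells. The measure here is the log2 level of the A gene minus that of the B gene within a library, which does not depend on scaling between libraries. Its change was tested with limma over all 706 pairs of genes in the genome whose names differ only in a closing A or B or a closing 1 or 2, whether or not they are duplicates. In wild type after 48 h, 25 of 59 pairs moved (53.1% of all name pairs did), 10 towards the A gene and 15 towards the B gene. In mus81 31 moved (52.1%), 11 towards A and 20 towards B. In aged hst3 hst4 cells 38 moved (49.4%), 15 towards A and 23 towards B. In the translocation table, 26 moved (28.8%), 10 towards A and 16 towards B. The shares of 42.4%, 52.5%, 64.4% and 44.1% thus stood below, at, above and above those of name pairs at large. After 24 h the counts were 25 in mus81 (45.3%), 13 in wild type (36.4%) and 17 in the translocation table (20.4%). The count in hst3 hst4 was 0 without either aged library, and that in the translocation table after 48 h was 0 without either 48 h library and 17 without either log-phase library.

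Directions were then compared between the 4 sets, which have no library in common. In all, 15 of 59 pairs were called in the same direction in all 4 sets, where 15% of the 706 name pairs were. The A gene gained in RPL19, RPL26, RPL40, RPS9, RPS16 and RPS26, and the B gene gained in RPL1†, RPL9, RPL16, RPL20, RPL22, RPS6†, RPS14, RPS21 and RPS22. Counting sign alone, 40 of 59 pairs had the same sign in the 4 sets, where 52.3% of the name pairs did. Over the 59 pairs, Pearson's r of the change was 0.887 between mus81 and wild type, 0.739 between hst3 hst4 and wild type, and 0.951 between the translocation table and wild type, given as a description across pairs that are not independent replicates. Of the 8 pairs called in no set (20.7% of the name pairs were in none), RPL17, RPL21, RPL33, RPL36, RPS23 and RPS27 are free of widely shared windows. RPL8 alone was called in opposite directions, at −0.46 in mus81 and 0.41 in hst3 hst4. By sign alone, the scarcer gene of a pair, taken from the wild-type log library of the hst3 hst4 table, gained in 32 of 59 pairs in mus81, 30 in the translocation table and 30 in wild type. The hst3 hst4 set was not counted here because it shares that table.

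**Figure D4:**
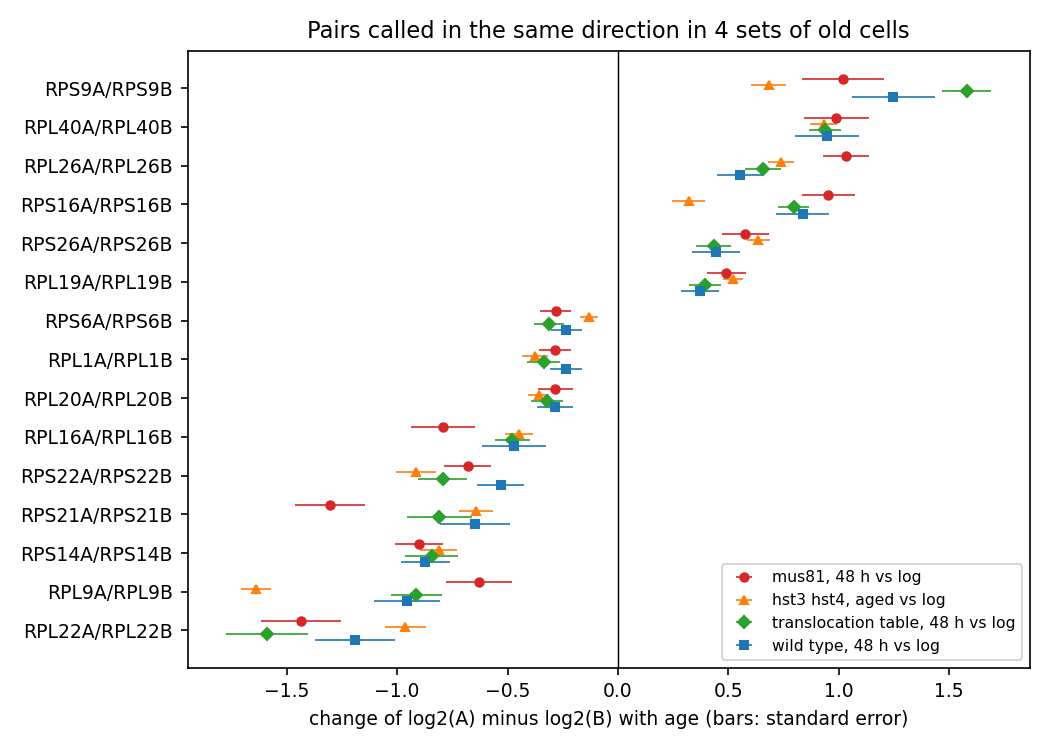
Change with age of log2(A) minus log2(B) (x axis, with standard errors) for the 15 pairs called in the same direction in mus81, hst3 hst4, the translocation table and wild type. RPS9 moved towards its A gene by 0.68 to 1.58 and RPL22 towards its B gene by −0.96 to −1.59.

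RPS9A is the scarce copy of RPS9. It lies at chromosome XVI 404950 to 406044 with an intron of 501 bases, and RPS9B lies at chromosome II 604508 to 605508 with an intron of 413 bases. RPS9A gave 3.953% and 4.132% of the pair's reads in mus81 log phase, 7.824% and 7.477% after 24 h and 7.66% and 8.086% after 48 h. Wild type had 3.616% and 4.491% in log phase, 8.563% and 5.336% after 24 h and 8.898% and 9.242% after 48 h. The translocation strain had 3.019%, 8.115% and 8.037% and the control 2.786%, 8.157% and 8.369% in the same order of stages. Old and log-phase libraries did not overlap within a strain. The balance moved by 1.02 in mus81 (SE 0.1861, limma adjusted p = 0.000465), by 1.58 in the translocation table (adjusted p = 0.00339) and by 1.25 in wild type (adjusted p = 0.000107). In hst3 hst4 RPS9A gave 12.18% and 11.82% in aged cells, against 7.515% and 8.162% in log phase, and its wild type gave 7.324% in aged cells, against 7.547%. RPS9A was read few times, with 208 reads in wild-type 24 h replicate 2, and its own change was −0.56 in mus81, −0.95 in hst3 hst4 (both called), 0.04 in the translocation table and −0.29 in wild type (both uncalled). RPS9B fell by 1.58, 1.63, 1.54 and 1.53 in the same order.

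In RPL22 the scarce copy is the B gene. RPL22A lies at chromosome XII 263194 to 263948 with an intron of 389 bases and RPL22B at chromosome VI 64243 to 64932 with an intron of 321 bases. RPL22A gave 95.09% and 95.36% of the pair's reads in mus81 log phase, 89.65% and 91.14% after 24 h and 86.33% and 89.58% after 48 h. In wild type it gave 93.81% and 94.43%, then 89.44% and 92.16%, then 88.17% and 86.89%. The balance moved towards RPL22B by −1.44 in mus81 (SE 0.1823, adjusted p = 3.17e-05), −1.59 in the translocation table (adjusted p = 0.00706), −0.96 in hst3 hst4 (adjusted p = 0.0048) and −1.19 in wild type (adjusted p = 0.000135). In hst3 hst4 the share of RPL22A was 79.94% and 79.38% in aged cells, against 88.69% and 88.15% in log phase.

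RPS14A, at chromosome III 177500 to 178220, lost share to RPS14B, at chromosome X 73787 to 74611. Its share was 81.61% and 80.7% after 48 h in mus81, against 88.26% and 89.59% in log phase, and 80.07% and 81.5% in wild type, against 87.8% and 89.18%. The change was −0.90 in mus81 (adjusted p = 2.45e-05), −0.84 in the translocation table, −0.81 in hst3 hst4 and −0.87 in wild type (adjusted p = 2.84e-05). RPL40 encodes 2 copies of a ubiquitin fused to a 60S protein, RPL40A at chromosome IX 68708 to 69528 and RPL40B at chromosome XI 617996 to 618750. RPL40A gave 68.87% and 74.13% of the reads after 48 h in mus81, against 53.77% and 58.04% in log phase. Wild type had 70.38% and 69.46% after 48 h, against 51.34% and 57.98%. The change was 0.99 in mus81, 0.93 in hst3 hst4, 0.94 in the translocation table and 0.95 in wild type.

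RPS16 changed which copy was read more in the mus81 and translocation tables. In the hst3 hst4 table RPS16A was already read more in log phase. RPS16A, at chromosome XIII 551928 to 552903, gave 58.65% and 65.33% of the pair's reads after 48 h in mus81, against 46.49% and 45.07% in log phase, and 60.54% and 60.93% in wild type, against 47.55% and 45.28%. RPS16B, at chromosome IV 306926 to 307789, gave the rest. The change was 0.95 in mus81 (adjusted p = 2.69e-05) and 0.84 in wild type (adjusted p = 7.08e-05). In hst3 hst4 it was 0.32 (adjusted p = 0.0261), with 58.55% and 59.22% in aged cells and 51.98% and 54.87% in log phase.

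**Figure D5:**
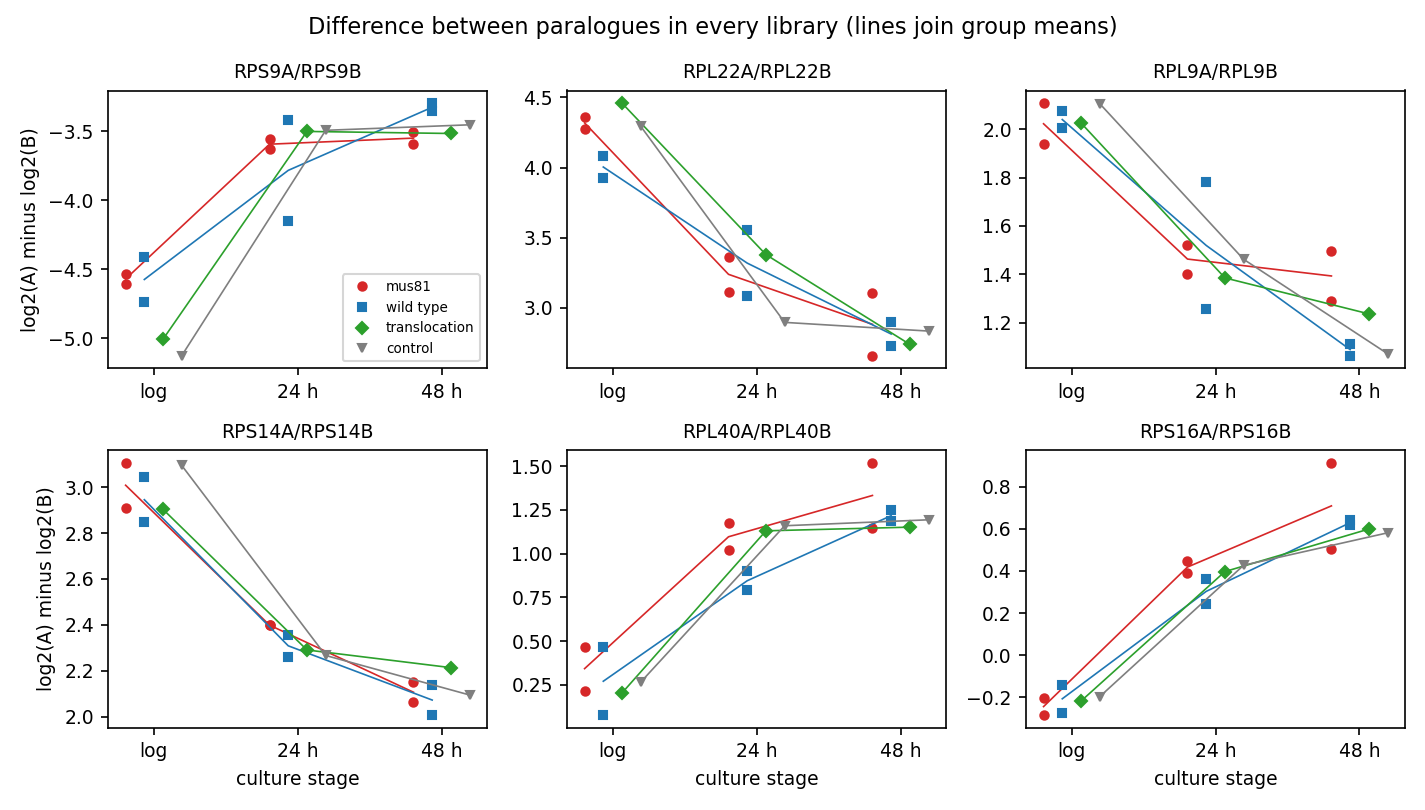
Log2 level of the A gene minus that of the B gene (y axis) at each culture stage (x axis) for 6 pairs in the mus81, wild-type, translocation and control libraries, 1 point per library with lines through group means. The difference rises with age for RPS9, RPL40 and RPS16 and falls for RPL22, RPL9 and RPS14.

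The 6 largest moves in mus81 included RPS30, RPS21 and RPL26, which were called in wild type too but not among its 6 largest. RPS30A, whose 40S protein is made as a fusion with a ubiquitin-like peptide in mammals, gave 73.06% and 76.9% of its pair's reads after 48 h in mus81, against 55.51% and 46.3% in log phase, and 65.37% and 61.57% in wild type, against 59.23% and 46.63%. The change was 1.53 in mus81 (adjusted p = 0.000105) and 0.63 in wild type (adjusted p = 0.0343). RPS21A gave 30.74% and 23.8% after 48 h in mus81, against 47.07% and 48.66%, and 34.11% and 38.26% in wild type, against 45.93% and 48.11%. The change was −1.30 in mus81 and −0.65 in wild type. RPL26A gave 49.82% and 53.9% after 48 h in mus81, against 34.0% and 34.94%, and 45.1% and 41.29% in wild type, against 34.7% and 33.55%. Its change was 1.04 in mus81 and 0.55 in wild type. The difference between the strains in these changes was not called for any of the 3 pairs (adjusted p = 0.618 for each). Over all 59 pairs limma called 0 for that difference (0% of all name pairs), with 5 at an unadjusted p below 0.05, a count without a background share. Voom was not run on pairs.

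Between mus81 and wild type at a single stage, 3 pairs differed after 24 h, where 1.27% of all name pairs did. RPS25A gave 57.93% and 60.05% of its pair's reads in mus81 and 68.8% and 70.01% in wild type, a difference of −0.66 (SE 0.1277, adjusted p = 0.0238). RPS1A gave 52.16% and 50.06% in mus81 and 42.85% and 42.19% in wild type, a difference of 0.50 (SE 0.07699, adjusted p = 0.00549). RPL26A gave 47.96% and 49.11% in mus81 and 38.72% and 38.67% in wild type, a difference of 0.58 (SE 0.1038, adjusted p = 0.0164). None of the 3 overlapped between strains. The count was 0 without mus81 24 h replicate 1, 1 without mus81 24 h replicate 2 or wild-type 24 h replicate 2, and 5 without wild-type 24 h replicate 1 or mus81 48 h replicate 1. In log phase limma called 0 pairs (0.425%), with 0 at an unadjusted p below 0.05. After 48 h it called 0 (0.283%), with 14 at an unadjusted p below 0.05, a count without a background share.

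RPL9 is the only pair whose shift was called as different between hst3 hst4 and its wild type when adjusted over the 706 name pairs. More pairs were called when only pairs named A and B were fitted, as given below. RPL9A gave 60.58% and 61.5% of the reads in aged hst3 hst4 cells, against 83.14% and 82.88% in log phase. In the wild type of that table it gave 72.56% in aged cells, against 76.72% in log phase. In the mus81 table it gave 70.99% and 73.82% after 48 h in mus81, against 79.3% and 81.18% in log phase, and 68.38% and 67.63% in wild type, against 80.07% and 80.83%. The shift was −1.64 in hst3 hst4 (SE 0.06713, adjusted p = 0.00301), −0.63 in mus81 (adjusted p = 0.00317), −0.91 in the translocation table (adjusted p = 0.00844) and −0.95 in wild type (adjusted p = 0.000156). In hst3 hst4 the shift exceeded that of its wild type by −1.32 (SE 0.1163, limma adjusted p = 0.025). This was the single call among 59 pairs, where 1.84% of all name pairs differed. At an unadjusted p below 0.05 there were 18 pairs, a count without a background share. The call was lost without either aged hst3 hst4 library and without a variance trend, and without log-phase replicate 1 and replicate 2 the count of pairs was 27 and 22. The shift in the mutant was −1.68 in the lane of replicate 1 and −1.60 in that of replicate 2, and that in the wild type, from 1 library per stage, was −0.32. Within the lane of replicate 1, the balance in the mutant minus that in the wild type was 0.58 in log phase and −0.78 in aged cells. The difference in shift thus includes a difference in log phase. RPL9A fell by 2.22 in the mutant, whereas RPL9B fell by 0.58 (adjusted p = 0.0113), with 10.87 and 10.78 in aged cells and 11.32 and 11.49 in log phase.

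Promoters of the shifting pairs were searched for the Rap1 motif, written ACCCNNACA and sought on both strands within 600 bases before the start codon of the R64 annotation. It occurred in 57 of 137 ribosomal protein genes (41.6%), against 5.64% of all other genes. By subunit, 48.1% of 60S genes and 32.1% of 40S genes held it. Both genes of 12 pairs, 1 gene of 27 and neither gene of 20 had a match. Among the pairs above, RPL22B, RPL9A and RPL40B had a match where the partner had none, and both RPS16 genes had one. Their windows of 59 bases are shown with the motif in capitals, 5′ to 3′ on the coding strand.
RPL22B (chrVI:65144-65202, - strand): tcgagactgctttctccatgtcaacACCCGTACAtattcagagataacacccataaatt
RPL9A (chrVII:228606-228664, - strand): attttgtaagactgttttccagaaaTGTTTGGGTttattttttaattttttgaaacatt
RPL40B (chrXI:618960-619018, - strand): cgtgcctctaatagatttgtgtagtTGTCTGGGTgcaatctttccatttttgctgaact
RPS16A (chrXIII:551596-551654, + strand): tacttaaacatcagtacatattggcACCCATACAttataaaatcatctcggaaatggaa
RPS16B (chrIV:308118-308176, - strand): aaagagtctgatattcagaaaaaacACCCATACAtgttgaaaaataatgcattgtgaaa

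These matches end 236, 301, 234, 298 and 353 bases before the start codon in the order shown. RPL9A and RPL40B, which hold the motif, lost share with age and RPL22B, which also holds it, gained share. In wild type after 48 h genes with a match had a median change of −1.18 and genes without a match −1.19. The stress response motif CCCCT, sought on both strands, occurred in 37.2% of ribosomal protein genes and 39.8% of other genes, and the Abf1 motif in 10.9% and 19.9%. A match is a description of these letters, and a missing match says nothing about binding.

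Other genes of the pathway were described from lists chosen with earlier results of these data known. Over all features 29.5% fell in mus81, 23.6% in hst3 hst4, 17.2% in the translocation table and 30.1% in wild type. Of 22 regulators of ribosomal protein genes, 10 fell and 4 rose in mus81 (median −0.23) and 12 fell and 3 rose in wild type (median −0.47) after 48 h. In the translocation table, 8 fell and 2 rose (median −0.50), and in hst3 hst4 4 fell and 6 rose (median 0.23). IFH1, the coactivator, rose in all 4 sets, by 1.62 in mus81, 1.82 in hst3 hst4, 1.18 in the translocation table and 1.36 in wild type. RAP1 fell by 1.51 in mus81, 1.30 in the translocation table and 1.72 in wild type, and gave −0.16 in hst3 hst4, which was not called. HMO1, a high-mobility-group protein at these promoters, fell by 1.70, 1.72 and 1.80 in the same 3 sets and gave −0.07 in hst3 hst4, uncalled. FHL1 likewise fell by 1.04, 1.57 and 1.39 and gave −0.29 in hst3 hst4, uncalled.

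Of 12 dedicated chaperones of ribosomal proteins, 10 fell in mus81 (median −1.14), 10 in hst3 hst4, where 1 rose (median −0.74), 11 in the translocation table (median −1.22) and 11 in wild type (median −1.15). RRB1, the chaperone of Rpl3, fell by 1.71 in mus81, 1.32 in hst3 hst4, 1.56 in the translocation table and 1.82 in wild type. Of 11 ribosome-bound proteins, 10 fell in mus81, 8 in hst3 hst4, 9 in the translocation table and 10 in wild type. Among them ASC1, which encodes a scaffold on the 40S subunit, fell by 2.40 in mus81, 1.94 in hst3 hst4, 1.60 in the translocation table and 1.77 in wild type. Of 32 translation factors, 30 fell and 1 rose in mus81, 19 fell and 2 rose in hst3 hst4, 27 fell and 1 rose in the translocation table, and 29 fell and 1 rose in wild type. HEF3, the second gene for elongation factor 3, rose by 1.66, 1.47, 1.70 and 2.05 in these sets in the same order.

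The 54 mitochondrial ribosomal protein genes served as a set of ribosomal proteins outside the rule. Of these, 20 fell and 3 rose in mus81 (median −0.28) and 16 fell and 4 rose in wild type (median −0.21) after 48 h, where 29.5% and 30.1% of all features fell, so the wild-type count is near the background. In the translocation table, 5 fell and 1 rose (median −0.36, with 17.2% of all features falling), and in hst3 hst4, 43 fell and 1 rose (median −0.70, with 23.6%). In wild type they took 0.34% and 0.3453% of gene reads after 48 h, against 0.2271% and 0.234% in log phase, where the cytosolic genes took a smaller share. Their share also rose in mus81 (0.3076% and 0.3331%, against 0.2218% and 0.2298%), the translocation strain (0.3631%, against 0.2904%) and its control (0.3493%, against 0.3175%). Share and median thus moved in opposite directions there, so the direction rests on the scaling. In hst3 hst4 the share fell, to 0.2517% and 0.2469% from 0.3197% and 0.3523%.

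RPP1, the RNase P and RNase MRP subunit at locus YHR062C, fell by 1.35 in mus81 (adjusted p = 3.94e-05), by 1.36 in the translocation table (adjusted p = 0.00916) and by 1.21 in wild type (SE 0.2024, adjusted p = 9.78e-05). In hst3 hst4 it gave −0.35, which was not called (adjusted p = 0.0903).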

How the data were processed

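The authors deposited 3 tables of log2 scaled read counts per annotated feature for 24 libraries, and these log2 values were used as deposited. Trimming with Trim Galore 0.6.6, alignment with HISAT2 2.1.0 and the R64 genome are named in the submitters' processing notes; the counting program is not given in the sources used here, nor are its strand setting and the scaling. In each library the values step by whole reads when read as 0.9 entered for a count of 0, and all recovered reads came out whole within 0.02, which gave depths of 1656535 to 11330955 reads. Depth limits scarce paralogues most.

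Features above the lowest value in at least 2 libraries were tested in each table separately (6669, 6613 and 6651 features) with limma 3.58.1 in R 4.3.3, with a variance trend and Benjamini-Hochberg adjustment, called below 0.05; residual degrees of freedom were 6, 2 and 2. The translocation table had 1 term for strain and 1 for age, without an interaction. Paralogue balance, log2 A minus log2 B within a library, was fitted the same way over 706 name pairs. Levels per kilobase used coding length from the R64 annotation, whose coordinates matched those of 5980 of 6664 genes and of all members. Fits were first tested on simulated data. Other work used Python 3.11.15 with pandas 2.3.3, numpy 2.4.6 and matplotlib 3.10.9.

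Members and lists were chosen with earlier results of these data known. Genes were named by rule: the 5 deepest and 5 shallowest called falls and all rises per set of old cells, up to 5 called members per strain contrast, the single-copy genes, and the 6 pairs that were most uneven in level or moved most in wild type and in mus81. RPP0, RPS11A, RPS11B and the pathway genes were named after their values were seen. Some items that the rule names are not reported here. Alternatives were quantile normalization, median centring, other filters, no variance trend, replicate blocks, letter pairs only and each library left out; limma voom on the recovered reads and the difference between hst3 hst4 and wild type in the change with age were added after seeing the data.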

Additional observations from a re-analysis of the deposited data

Results flagged for a closer look

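The change with age of ribosomal protein genes differed between hst3 hst4 and its wild type in a test of the difference itself. It was lower in the mutant for 78 of 137 genes, and higher for 0, where 6.03% of all features were lower, with 1 wild-type library per stage. By the medians given above, that wild type fell less with age than the other sets of old cells. The count was 0 without either aged mutant library or without a variance trend and 45 under quantile normalization.

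The balance of RPL9A and RPL9B also changed differently in these strains by such a test. The change of log2(A) minus log2(B) in hst3 hst4 minus that in its wild type was −1.32 (SE 0.1163, limma adjusted p = 0.025). RPL9A gave 60.58% and 61.5% of the pair's reads in aged mutant cells and 72.56% in the aged wild type, and 83.14% and 82.88% in mutant log phase and 76.72% in wild-type log phase. Lanes and a batch name in the headers also differ between these libraries, and their part was not tested.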

How the results depend on the processing

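Of the named genes' values under the alternatives, 619 kept direction and side of the threshold, 101 kept direction only and 22 changed sign; the 204 values of the 6 pairs named by rule in wild type and the 6 in mus81 after 48 h kept both, while the calls of RPL9 in hst3 hst4 minus wild type and of the 3 pairs in mus81 over wild type after 24 h were lost under settings given below. Signs changed to positive under quantile normalization for RPS29A (0.20), RPL37A (0.40), RPL26A (0.38) and RPS25B (0.37) in wild type after 48 h, RPL37A (0.44), RPL31B (0.30), RPS29A (0.26) and RPS14B (0.12) in mus81, RPS4B† (0.16), RPL4B† (0.16) and RPL5 (0.25) in hst3 hst4, and RPS25A (0.20) in the translocation table. Under voom they did so for RPS29A (0.12), RPL37A (0.17), RPL22B (0.21), RPL26A (0.24) and RPS25B (0.26) in wild type and RPL37A (0.18), RPL31B (0.19), RPS29A (0.25), RPL22B (0.32) and RPS14B (0.38) in mus81. The cause was not tested.

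Counts of called genes under quantile normalization were 33, 75 and 16 in mus81 (24 h, 48 h, and 48 h over 24 h), 8, 63 and 14 in wild type, 2 and 1 for mus81 over wild type after 24 h and 48 h, 3, 56 and 45 for hst3 hst4 over wild type in log phase, in aged cells and in the change with age, and 10 and 24 in the translocation table after 24 h and 48 h. Voom gave 63 in mus81 after 24 h, 52 in wild type after 24 h and 58 after 48 h over 24 h, 9 and 1 for mus81 over wild type after 24 h and 48 h, 7 for hst3 hst4 over wild type in log phase and 58 in the translocation table after 48 h. Without a variance trend the gene counts were 0 for mus81 48 h over 24 h, mus81 over wild type after 24 h and hst3 hst4 over wild type in log phase and in the change with age, and 6 in the translocation table after 24 h. Pair counts without it were 16 in mus81 after 24 h, 8 and 15 in wild type after 24 h and 48 h, 19 in hst3 hst4, 3 and 6 in the translocation table after 24 h and 48 h, and 0 for mus81 over wild type after 24 h and for hst3 hst4 minus wild type. Median centring gave 4 genes for hst3 hst4 over wild type in log phase, and a filter at the 25th percentile of mean level 2 for mus81 over wild type after 24 h. Letter pairs alone gave 1 pair for mus81 over wild type after 48 h, 15 for hst3 hst4 minus wild type and 33 in the translocation table after 24 h.

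Same-numbered libraries were not paired by the labels, and correlations of their deviations ran from −0.136 to 0.563 over 15 group pairs, with 6 over 0.1. A replicate block by title number gave 132 genes in wild type and 135 in mus81 after 48 h, 130 in hst3 hst4, 2 and 2 for mus81 over wild type after 24 h and 48 h and 33 for the hst3 hst4 difference in the change with age. The other numbering in the labels, as a block, gave 0 for mus81 over wild type after 24 h.

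With single libraries left out, gene counts ranged in mus81 over 90 to 117 (24 h), 129 to 135 (48 h) and 1 to 114 (48 h over 24 h), in wild type over 80 to 118, 127 to 132 and 23 to 107, in hst3 hst4 over 108 to 137, and in the translocation table over 3 to 85 and 0 to 122. For mus81 over wild type they ranged from 0 to 3 after 24 h and from 0 to 4 after 48 h (4 without mus81 replicate 1), and for hst3 hst4 over wild type from 0 to 35 in log phase, 0 to 135 in aged cells and 0 to 131 in the change with age. Pair counts ranged in mus81 over 13 to 31 (24 h) and 24 to 33 (48 h), in wild type over 6 to 17 and 18 to 31, in hst3 hst4 over 0 to 47, for its difference from wild type over 0 to 27, for mus81 over wild type over 0 to 5 and 0 to 7, and in the translocation table over 0 to 13 and 0 to 25. Pairs after 24 h fell to 13 in mus81 without 24 h replicate 1 and to 6 in wild type without log replicate 1. The 2 libraries per group, 1 wild-type library per stage for hst3 hst4 and 1 per strain and stage in the translocation table limit all counts.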
